A study of Mus musculus with 12 samples.

Results

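Mitosis genes are the genes whose transcripts and proteins build up in G2 and M phase, when a cell condenses its chromosomes, assembles a spindle and divides. The 42 genes described here were taken by symbol from a list of G2 and M phase genes, by a rule that used no measured value although earlier results of these data were known, out of 16411 genes in the deposited table, and all 42 passed the filter on low counts. The transcripts of 6 tumors were compared with those of 6 samples of benign tissue from the mammary gland. Every mouse was a female MMTV-Neu-NDL-YD5 transgenic on the FVB background, in which the mouse mammary tumor virus promoter drives an activated form of Neu, the rodent HER2 receptor, in mammary epithelium. Benign therefore means mammary tissue without visible tumor from animals that carry the same transgene, and the tumors and benign samples came from different mice whose ages the labels did not give. Levels are given as CPM, the count of a gene scaled to a common library size, on library sizes scaled by edgeR's TMM method, from libraries of 5240853 to 8588567 counts, and the samples are named by their group and number.

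Entry into mitosis is driven by the kinase CDK1 bound to cyclins A2, B1 and B2. Aurora and Polo kinases then build the spindle, the checkpoint kinases hold the cell until every chromosome is attached, and the anaphase-promoting complex destroys cyclin B and securin so that sister chromatids part and the cell divides. Most of these genes are kept silent in resting cells and are switched on together late in the cycle by MuvB complexes that contain B-MYB, the product of Mybl2, and by FOXM1. In tissue sections and RNA, the level of Mki67 and its neighbours in this program is widely used as a measure of how many cells are dividing.

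The promoters of the mitosis genes carried the sequence elements through which this program is known to act. In the RefSeq promoter table (GRCm38.p6, from 250 bases before to 50 bases after each gene start), 35 of the 42 genes had an entry, with 37 promoters. Ect2 and Prc1 each had 2 overlapping entries that share sites, which the shares and intervals below treat as separate promoters. The hexamer TTTGAA, known as the cell cycle genes homology region or CHR, occurred on either strand in 27 of these 37 promoters (73.0%, exact 95% binomial interval 55.9% to 86.2%), against 12.1% of the 13436 promoters of the genes tested and 17.9% of all 32851 promoters. The pentamer CCAAT, bound by NF-Y, occurred on either strand in 28 of 37 (75.7%, interval 58.8% to 88.2%), against 37.4% of the promoters of the genes tested and 37.4% of all promoters. Both occurred together in 24 of 37 promoters (64.9%), against 4.91% of those of the genes tested. The variant hexamer TTCGAA occurred in 3 of 37 promoters (8.11%, interval 1.70% to 21.9%), against 2.06% of those of the genes tested. The 6 sequences shown run from 100 bases before to 50 bases after the gene start, 5′ to 3′ on the gene's strand, with each TTTGAA or CCAAT in capitals in either orientation (TTCAAA and ATTGG on the opposite strand). They are those of the 3 genes with the largest tumor to benign differences, of the central kinase and one of its cyclins, and of the gene with the lowest ratio.
Hmmr (chr11:40733388-40733537, minus strand): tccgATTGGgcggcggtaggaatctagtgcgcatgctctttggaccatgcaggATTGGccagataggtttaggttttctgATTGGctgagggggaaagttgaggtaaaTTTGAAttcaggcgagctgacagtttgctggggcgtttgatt
Cenpf (chr1:189688037-189688186, minus strand): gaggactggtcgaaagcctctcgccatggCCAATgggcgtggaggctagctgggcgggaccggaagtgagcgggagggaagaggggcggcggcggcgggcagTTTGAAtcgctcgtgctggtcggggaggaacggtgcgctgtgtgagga
Mki67 (chr7:135716330-135716479, minus strand): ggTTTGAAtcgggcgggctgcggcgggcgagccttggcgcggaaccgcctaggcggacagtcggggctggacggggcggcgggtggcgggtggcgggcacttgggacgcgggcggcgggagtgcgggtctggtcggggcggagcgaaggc
Cdk1 (chr10:69352863-69353012, minus strand): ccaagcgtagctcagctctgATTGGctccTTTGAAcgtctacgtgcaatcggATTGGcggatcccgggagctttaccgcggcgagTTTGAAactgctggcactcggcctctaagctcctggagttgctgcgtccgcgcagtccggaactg
Ccnb2 (chr9:70421505-70421654, minus strand): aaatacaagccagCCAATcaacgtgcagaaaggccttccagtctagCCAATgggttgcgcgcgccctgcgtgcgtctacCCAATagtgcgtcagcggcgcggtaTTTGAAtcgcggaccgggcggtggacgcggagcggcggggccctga
Mybl2 (chr2:163054535-163054684, plus strand): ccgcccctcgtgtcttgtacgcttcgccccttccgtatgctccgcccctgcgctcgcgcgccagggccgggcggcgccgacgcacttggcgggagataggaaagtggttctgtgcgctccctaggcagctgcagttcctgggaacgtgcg
Within the window shown, the Hmmr promoter held 3 CCAAT boxes upstream of a CHR placed 9 bases into the gene. In the same window Ccnb2 held 3 CCAAT boxes and a CHR at base 5, and Cdk1 held 2 of each. Upstream of it, the whole entries held further CCAAT boxes in Hmmr and Cdk1 and a further CHR in Ccnb2. The whole Mki67 promoter entry, which reaches beyond the window shown, held a CHR at 116 and another at 98 bases before the start, with 3 CCAAT boxes upstream of both. Neither element occurred in the whole promoter entry of Mybl2, nor in those of Melk, Nuf2, Nusap1, Birc5 or Pttg1, which says only that these letters are absent from that window.

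**Figure D1:**
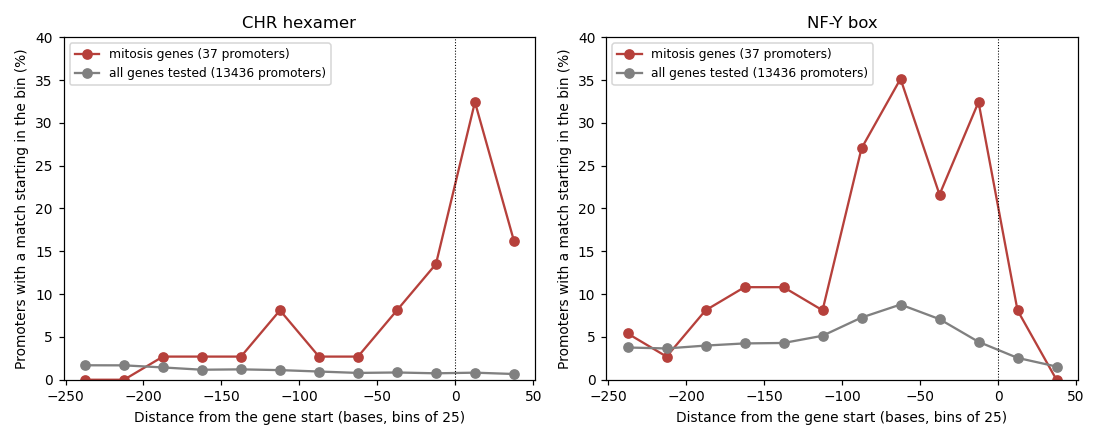
Share of promoters (y axis, percent) with a match starting in each bin of 25 bases, against distance from the gene start (x axis, bases), for the 37 promoters of the mitosis genes (red) and the 13436 promoters of all genes tested (grey). The CHR hexamer peaks just after the start in mitosis genes, at 32.4% of promoters, and the NF-Y box (CCAAT) peaks before it, at 35.1%.

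The mitosis genes hardly separated tumors from benign tissue, because benign tissue ranged from far below the tumors to above them. Summed over the 42 genes, the 6 tumors lay between 1379 and 1719 CPM. The 6 benign samples, numbered 1 to 6, lay at 694, 961, 2107, 156, 2179 and 106 CPM. Benign samples 3 and 5 were thus above every tumor and the other 4 below every tumor, with exact 95% Poisson intervals, which cover counting error only, of 2074 to 2140 CPM in benign sample 3 and 97.5 to 115 CPM in benign sample 6. In edgeR's quasi-likelihood test with Benjamini-Hochberg adjustment over 13191 genes, 2 of the 42 rose in tumors at an adjusted p under 0.1 (Hmmr and Cenpf) and 0 fell. Across all genes tested, 28.2% rose and 34.8% fell at the same threshold, so calls were far rarer among the mitosis genes than in the table as a whole. At an unadjusted p under 0.05, 1 mitosis gene was higher and 0 were lower, against 27% and 33.8% of genes tested. DESeq2 called 3 higher (Mki67 being the third) and 0 lower, against 26.6% and 33.3% of genes called by that tool.

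**Figure D2:**
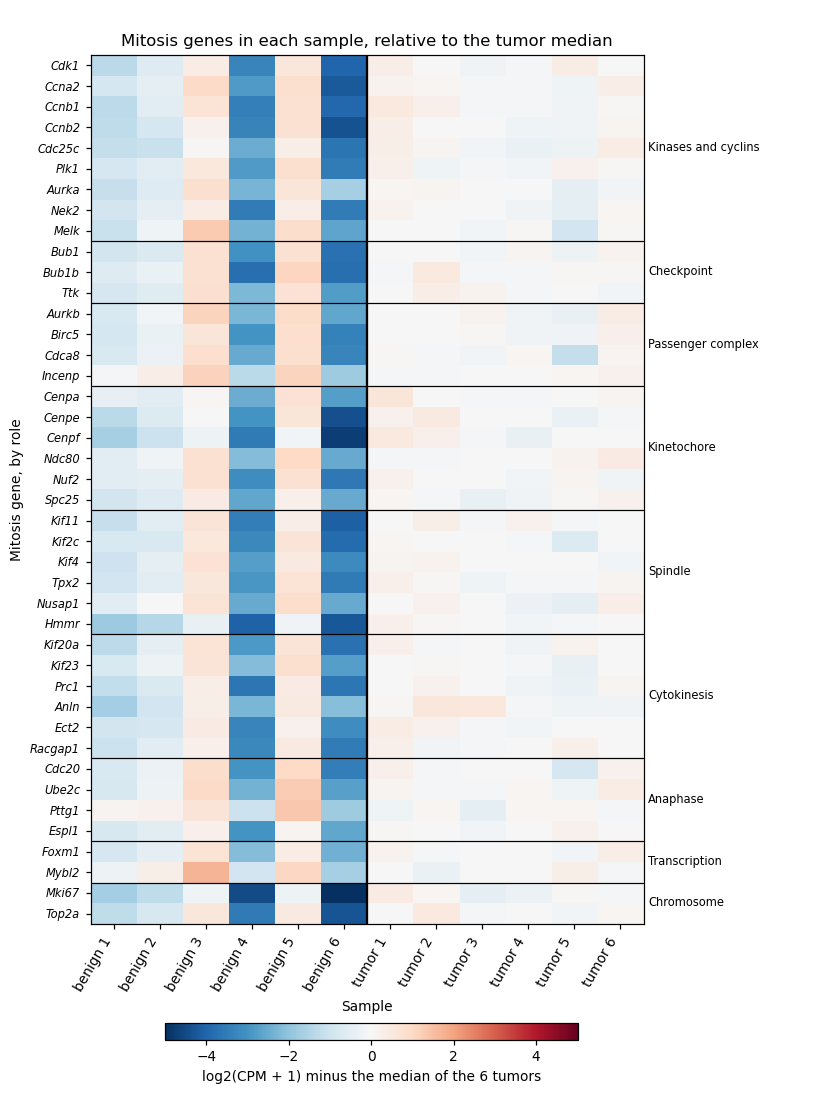
Level of each mitosis gene (rows, grouped by role) in each of the 12 samples (columns), as log2(CPM + 1) minus the median of the 6 tumors, with blue below and red above that median. Benign samples 4 and 6 are blue in all 42 rows, benign samples 3 and 5 are mostly pale red, and the 6 tumors are nearly even.

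The pattern of the benign samples was shared by the whole program. Benign samples 4 and 6 were the lowest pair of the 6 benign samples for all 42 genes, against 21.6% of genes tested, and benign samples 3 and 5 were the highest pair for all 42, against 12.2% of genes tested. These pairs were chosen after the values were seen. All 42 genes in benign samples 4 and 6 lay below every tumor, as did 37 in benign sample 1 and 33 in benign sample 2, while 33 genes in benign sample 3 and 34 in benign sample 5 lay above every tumor. The standard deviation (SD) of log2 CPM had a median over the 42 genes of 1.91 in benign tissue and 0.21 in tumors, whereas over all genes tested the medians were 0.33 and 0.29. It was at least 4 times larger in benign tissue for 40 of the 42, against 4.77% of genes tested, with Anln (3.64 times) and Cdca8 (3.58 times) just under that bound and Melk (4.23 times) just over it. Without benign samples 3, 4 and 6 the count was 22 of 42. Over the 6 benign samples the median Pearson correlation between 2 of these genes was 0.99 (861 pairs), and over the 6 tumors it was 0.27. Pairs of genes drawn from all genes tested had medians near 0 in each group. These correlations share libraries and are given as a description.

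Marker genes of other cell types also varied among the benign samples, and some but not most epithelial markers took the order of the mitosis genes. The 8 skeletal muscle markers, among them Acta1 and Ckm, summed to 49033, 33116 and 83533 CPM in benign samples 3, 4 and 6, to between 16.3 and 340.5 CPM in the other benign samples and to at most 126 CPM in tumors. Muscle RNA thus stood beside the lowest mitosis levels in benign samples 4 and 6 and beside nearly the highest in benign sample 3. The 12 lymphocyte markers summed to 1735 CPM in benign sample 1 and to between 16.6 and 38.6 CPM in every other sample. The 7 adipocyte markers ranged from 8058 to 18358 CPM in benign tissue, highest in benign samples 4 and 6, and from 26.7 to 114 CPM in tumors. The 10 epithelial markers summed to 986 to 2676 CPM in benign tissue and 3020 to 4563 CPM in tumors. In tumors 7 of 10 were higher and Krt19 was lower, against 28.2% higher and 34.8% lower of genes tested. In benign samples 1 to 6 the epithelial sum was 1211, 2065, 1658, 1858, 2676 and 986 CPM, which was not the order of the mitosis genes. Of these markers Cdh1, Cldn7 and Esrp1, named after their values were seen, did take that order, from benign sample 5 down through 3, 2, 1 and 4 to 6. The other epithelial markers did not, to different degrees. Cldn3 departed from it only in that benign sample 2 (148 CPM) stood above benign sample 3 (105 CPM). Epcam and Krt8 were highest in benign sample 5 and lowest in benign sample 6 but differed in the order between. Among benign samples, Krt19, Krt7 and Cldn4 were highest in benign sample 4, at 555, 85.7 and 62.2 CPM. Krt18 was lowest in benign sample 3, at 181 CPM. Cdh1, the adhesion protein E-cadherin, stood at 134, 243, 249, 99.8, 274 and 63.9 CPM in benign samples 1 to 6. All 6 endothelial and all 6 fibroblast markers and 6 of 8 macrophage markers fell in tumors, against 34.8% of genes tested. The endothelial sum was 526 and 611 CPM in benign samples 3 and 5, where mitosis genes were highest, and 822 to 1023 CPM in the other 4 benign samples. The part of these cell types in the mitosis values was not tested, and in bulk tissue more dividing cells cannot be told apart from more transcript per dividing cell. Erbb2, the mouse gene that corresponds to the transgene, was the check of the labels. It lay at 44.8 to 73.7 CPM in benign tissue and 1989 to 16634 CPM in tumors, so all 12 samples matched their labels. Reads were quantified against mm10, so reads of the transgene may be counted as Erbb2 and cannot be told apart from those of the endogenous gene.

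Among the chromosome proteins, Mki67, which coats mitotic chromosomes and is the usual marker of proliferation, lay at 6.21 to 201 CPM in benign tissue (median 83.8) and at 168 to 311 CPM in tumors (median 236). By sample, it stood at 71.1, 96.5, 201, 9.80, 197 and 6.21 CPM in benign samples 1 to 6 and at 311, 253, 168, 191, 245 and 228 CPM in tumors 1 to 6. No benign sample exceeded all tumors, 4 tumors exceeded every benign sample, and tumors 3 and 4 overlapped with benign samples 3 and 5. The log2 fold change was 1.26 (SE 0.66), with an adjusted p of 0.122 in edgeR, and the exact two-sided permutation test of mean CPM over 924 regroupings, for this gene alone, gave p = 0.0152. The call moved with the benign samples and with the method. Mki67 passed the threshold without benign sample 3 (adjusted p = 0.0693 in edgeR) and without benign sample 5 (0.0708). With all samples kept it passed in DESeq2 (adjusted p = 0.0641) and in an edgeR fit that blocked on sample number (0.0597). Its adjusted p ranged from 0.0296 to 0.159 over 21 alternatives. Its SD of log2 CPM was 2.15 in benign tissue and 0.32 in tumors, a ratio of 6.82. A permutation test of that ratio, on values first centered on each group's median and so only approximate, gave p = 0.0390. That test was added after the values were seen. Top2a, the topoisomerase that untangles sister chromatids, ranged from 4.44 to 160.3 CPM in benign tissue (median 52.4) and from 96.3 to 149 CPM in tumors (median 107), a log2 fold change of 0.67 (SE 0.65, adjusted p = 0.401 in edgeR).

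**Figure D3:**
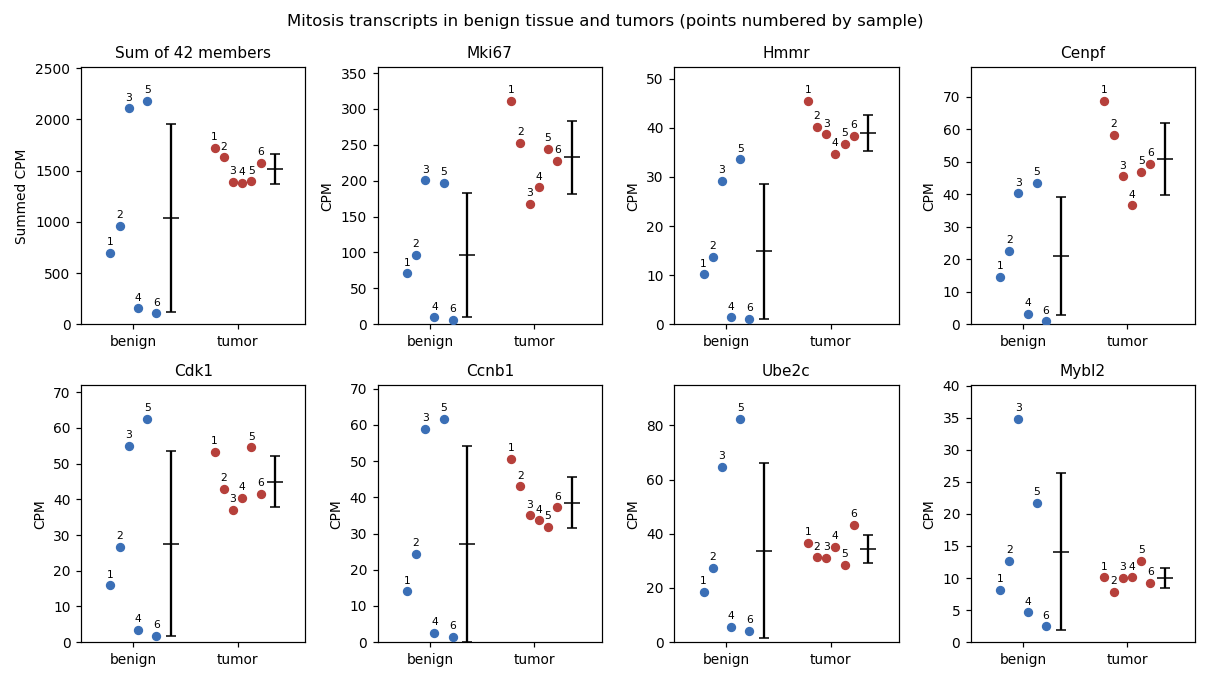
CPM in each benign sample (blue) and tumor (red), numbered by sample, for the sum of the 42 genes and for 7 of them, with the mean and SD of each group beside the points (n = 6 per group). Benign samples 3 and 5 reach into or above the range of the tumors in every panel except that of Hmmr, where all 6 tumors lie above all 6 benign samples.

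Kinases and cyclins of mitotic entry gave 0 calls among 9 genes, with log2 fold changes from -0.13 for Melk to 0.92 for Cdc25c. Cdk1, the kinase at the center of the program, stood at 15.9, 26.7, 55.01, 3.38, 62.6 and 1.78 CPM in benign samples 1 to 6 (median 21.3) and at 53.2, 43.0, 37.1, 40.5, 54.6 and 41.5 CPM in tumors 1 to 6 (median 42.3). Its log2 fold change was 0.70 (SE 0.63), with an adjusted p of 0.365 in edgeR and an exact permutation p of 0.143. Ccnb1, the cyclin B1 that activates it, ranged from 1.42 to 61.7 CPM in benign tissue (median 19.3) and from 31.8 to 50.6 CPM in tumors (median 36.1), a log2 fold change of 0.49 (SE 0.67, adjusted p = 0.552 in edgeR). Benign samples 3 and 5 exceeded every tumor for both genes, so that the groups overlapped from each side.

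Of the other cyclins, Ccna2 ranged from 2.49 to 123 CPM in benign tissue (median 39.2) and 53.1 to 78.5 CPM in tumors (median 62.4). Ccnb2 ranged from 0.710 to 58.2 CPM (median 16.02) and 29.0 to 43.3 CPM (median 34.0). Cdc25c, the phosphatase that releases CDK1 from inhibition, was not counted in benign sample 6 and reached 14.1 CPM elsewhere in benign tissue (median 4.61), against 8.77 to 14.9 CPM in tumors (median 11.5). It was the largest difference of the role at 0.92 (SE 0.66, adjusted p = 0.256 in edgeR). Plk1, the Polo kinase, ranged from 1.60 to 50.6 CPM in benign tissue (median 17.7) and 24.8 to 34.2 CPM in tumors (median 28.6). Aurka, which matures the spindle poles, ranged from 3.03 to 34.4 CPM (median 10.05) and 13.6 to 21.2 CPM (median 19.3), and its log2 fold change was 0.25. Nek2, a kinase of centrosome separation, ranged from 1.07 to 29.3 CPM (median 13.5) and 15.6 to 25.7 CPM (median 22.4). Melk ran against the rest in its mean, with 1.78 to 41.3 CPM in benign tissue (median 10.4) and 7.80 to 17.0 CPM in tumors (median 16.2), and a log2 fold change of -0.13 (SE 0.62, adjusted p = 0.876 in edgeR) that turned positive in 4 alternatives.

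The 3 spindle checkpoint kinases, which delay anaphase until chromosomes are attached, gave 0 calls and log2 fold changes from 0.22 to 0.35. Bub1 ranged from 0.178 to 25.3 CPM in benign tissue (median 7.79) and 11.9 to 16.4 CPM in tumors (median 14.5). Bub1b, which encodes BUBR1, had the smallest difference, at 1.42 to 68.4 CPM (median 22.4) and 29.3 to 44.6 CPM (median 31.7), with a log2 fold change of 0.22 (SE 0.69, adjusted p = 0.809 in edgeR). Ttk, which encodes MPS1, had the largest, at 1.07 to 23.7 CPM (median 7.55) and 11.7 to 16.9 CPM (median 13.2), with 0.35 (SE 0.57, adjusted p = 0.626 in edgeR). For all 3 genes benign samples 3 and 5 lay above every tumor and the other 4 benign samples below every tumor.

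The chromosomal passenger complex, in which Aurora B corrects faulty attachments with INCENP, survivin and borealin, gave 0 calls of 4, with a median log2 fold change of 0.05. Aurkb ranged from 2.66 to 47.8 CPM in benign tissue (median 15.6) and 16.5 to 27.7 CPM in tumors (median 21.4), a log2 fold change of 0.03. Birc5, which encodes survivin, had the largest difference, at 1.42 to 43.7 CPM (median 15.9) and 21.0 to 28.9 CPM (median 24.05), with 0.30 (SE 0.62, adjusted p = 0.701 in edgeR). Cdca8, which encodes borealin, ranged from 1.60 to 44.9 CPM (median 16.7) and 10.1 to 26.9 CPM (median 24.3). Incenp, the scaffold of the complex, had a higher median in benign tissue, at 9.59 to 79.8 CPM (median 39.5) against 33.3 to 41.9 CPM in tumors (median 35.7), with -0.25 (SE 0.43, adjusted p = 0.643 in edgeR). Its tumors spanned only 1.26 times from lowest to highest, and 3 benign samples lay above all of them.

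At the kinetochore and centromere, where microtubules grip the chromosome, 1 of 6 genes rose in tumors. Cenpf, a large protein of the outer kinetochore, stood at 14.6, 22.6, 40.2, 3.21, 43.6 and 0.888 CPM in benign samples 1 to 6 (median 18.6) and at 68.6, 58.2, 45.5, 36.6, 46.8 and 49.4 CPM in tumors 1 to 6 (median 48.1). Only tumor 4 fell within the benign range. The log2 fold change was 1.27 (SE 0.62, adjusted p = 0.0957 in edgeR; exact permutation p = 0.0108 for this gene alone). The 95% interval ran from -0.06 to 2.61. The call was lost with upper-quartile scaling (adjusted p = 0.109 in edgeR) and without benign sample 1, 2 or 4 or without tumor 1, 2, 3, 5 or 6, and the adjusted p ranged from 0.0351 to 0.142 over 20 alternatives.

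The other 5 kinetochore genes were not called. Cenpa, the histone variant that marks centromeres, ranged from 3.55 to 50.2 CPM in benign tissue (median 21.2) and 27.8 to 46.7 CPM in tumors (median 30.0). Cenpe, a kinetochore motor, ranged from 0.533 to 46.8 CPM (median 15.1) and 24.4 to 42.5 CPM (median 30.9). The subunits of the NDC80 complex, which binds microtubules directly, lay lower. Ndc80 had the smallest difference of the group, at 1.07 to 22.7 CPM (median 8.08) and 10.04 to 14.6 CPM (median 10.8), with a log2 fold change of 0.17 (SE 0.57, adjusted p = 0.813 in edgeR). Nuf2 ranged from 0.355 to 26.8 CPM (median 10.6) and 13.4 to 17.7 CPM (median 15.3), and Spc25 from 1.60 to 19.8 CPM (median 8.18) and 11.1 to 17.1 CPM (median 14.8).

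Among the spindle motors and spindle proteins 1 of 6 genes rose, and it was the largest difference of all 42. Hmmr, a hyaluronan receptor that also binds spindle microtubules and organizes the poles, stood at 10.2, 13.7, 29.2, 1.43, 33.6 and 1.07 CPM in benign samples 1 to 6 (median 11.96) and at 45.5, 40.2, 38.6, 34.7, 36.7 and 38.3 CPM in tumors 1 to 6 (median 38.5). It was the only mitosis gene with every tumor above every benign sample, against 14.7% of genes tested. The log2 fold change was 1.38 (SE 0.61, 95% interval 0.05 to 2.71, adjusted p = 0.0727 in edgeR). The exact permutation test, for this gene alone, gave p = 0.00216, the smallest that 924 regroupings can give. Any gene whose groups do not overlap has that p, so it adds nothing to the separation. Without benign sample 2 the adjusted p was 0.102, and over 20 alternatives it ranged from 0.0227 to 0.102.

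Of the remaining spindle genes, Kif11, the motor that pushes the poles apart, ranged from 1.07 to 53.4 CPM in benign tissue (median 18.5) and 31.7 to 41.7 CPM in tumors (median 33.5). Kif2c, which shortens microtubules, ranged from 0.355 to 29.7 CPM (median 10.5) and 11 to 19.6 CPM (median 18.5). Kif4, a chromosome-bound motor, was the steadiest of the 42 genes across tumors, at 16.1 to 19.9 CPM (median 17.6, 1.24 times from lowest to highest), against 1.07 to 30.1 CPM in benign tissue (median 10.3). Tpx2, the activator of Aurora A on the spindle, had the higher levels of the group, at 3.20 to 76.3 CPM (median 27.5) and 40.6 to 56.0 CPM (median 47.0). Nusap1, which bundles microtubules, had the smallest difference, at 4.26 to 53.7 CPM (median 24.5) and 21.2 to 36.7 CPM (median 29.0), with 0.12 (SE 0.53, adjusted p = 0.858 in edgeR).

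**Figure D4:**
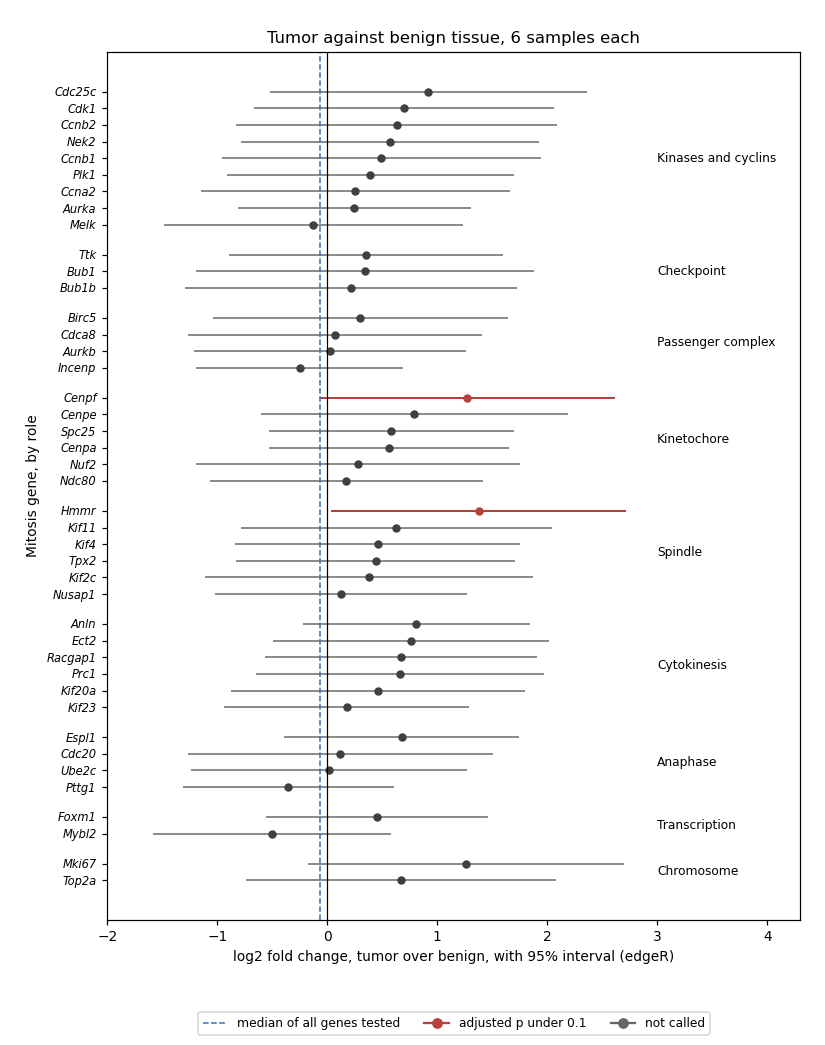
Log2 fold change of tumor over benign tissue (x axis) for each mitosis gene (y axis, grouped by role), with its 95% interval from edgeR, 6 samples per group. Hmmr and Cenpf, in red, pass an adjusted p of 0.1, 38 of 42 points lie right of 0, and every interval other than that of Hmmr includes 0.

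The cytokinesis genes, which build the central spindle and the contractile ring, gave 0 calls of 6, with a median log2 fold change of 0.67. Anln, the anillin scaffold of the ring, had the largest difference, at 6.41 to 48.9 CPM in benign tissue (median 14.2) and 30.8 to 52.7 CPM in tumors (median 35.5), with 0.81 (SE 0.47, adjusted p = 0.162 in edgeR). It passed the threshold without benign sample 3 (adjusted p = 0.0693 in edgeR) and without benign sample 5 (0.0395), within a range of 0.0395 to 0.260 over its alternatives. Ect2, the exchange factor that activates RhoA, ranged from 1.43 to 31.4 CPM (median 12.2) and 21.1 to 30.4 CPM (median 23.1). Its partner Racgap1 ranged from 3.73 to 72.2 CPM (median 29.7) and 47.4 to 62.7 CPM (median 52.1). Prc1, which crosslinks the central spindle, ranged from 3.20 to 67.4 CPM (median 25.3) and 39.6 to 58.0 CPM (median 50.2). The motor Kif20a ranged from 1.95 to 61.2 CPM (median 21.0) and 33.3 to 45.1 CPM (median 37.9). Kif23, the motor that works with RACGAP1, had the smallest difference, at 3.02 to 45.2 CPM (median 18.1) and 19.6 to 26.8 CPM (median 25.8), with 0.18 (SE 0.51, adjusted p = 0.790 in edgeR). In each of these 6 genes benign samples 4 and 6 were the lowest samples of all 12.

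The genes that trigger anaphase gave 0 calls of 4 and spread widely in direction. Ube2c, the ubiquitin-conjugating enzyme of the anaphase-promoting complex, was the member closest to equality, at 4.26 to 82.4 CPM in benign tissue (median 22.9) and 28.5 to 43.2 CPM in tumors (median 33.2), with a log2 fold change of 0.01 (SE 0.58, 95% interval -1.23 to 1.26). Cdc20, the activator of that complex, ranged from 2.31 to 71.3 CPM (median 24.7) and 19.6 to 42.8 CPM (median 35.5), with 0.12. Espl1, the separase that cuts cohesin, had the largest difference, at 2.32 to 30.6 CPM (median 15.4) and 22.6 to 29.5 CPM (median 25.2), with 0.68 (SE 0.49, adjusted p = 0.256 in edgeR). Pttg1, the securin that restrains separase, went the other way, at 3.02 to 34.0 CPM (median 14.4) and 8.91 to 13.7 CPM (median 12.6), with -0.35 (SE 0.44, adjusted p = 0.514 in edgeR). With benign samples 3, 4 and 6 left out it was lower in tumors (-0.76, adjusted p = 0.0520 in edgeR), within a range of adjusted p from 0.0520 to 0.962 over its alternatives. Separase and securin thus had point estimates of opposite sign, a difference that was not tested.

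The transcription factors of the program differed in sign without either being called. Foxm1 stood at 17.6, 23.4, 53.0, 6.41, 42.1 and 5.33 CPM in benign samples 1 to 6 (median 20.5) and at 37.0, 30.9, 32.3, 32.5, 29.7 and 40.8 CPM in tumors 1 to 6 (median 32.4). The log2 fold change was 0.45 (SE 0.46), with an adjusted p of 0.425 in edgeR and an exact permutation p of 0.275. Mybl2 stood at 8.15, 12.7, 34.8, 4.63, 21.7 and 2.49 CPM in benign samples 1 to 6 (median 10.4) and at 10.1, 7.84, 9.99, 10.1, 12.7 and 9.22 CPM in tumors 1 to 6 (median 10.1). At -0.50 (SE 0.50, adjusted p = 0.408 in edgeR) it was the lowest of the 42, with the group medians almost equal and the difference in means carried by benign samples 3 and 5. Of the 42 genes, Mybl2 was also the one in which benign sample 3 stood highest relative to the highest tumor.

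Of the 42 genes, 38 had a log2 fold change above 0 and 4 below (Melk, Incenp, Pttg1 and Mybl2), with a median of 0.45 against -0.06 over all genes tested. The 95% intervals had a median half-width of 1.31, against 0.44 for all genes tested. Each mitosis gene was thus measured with far less precision between the groups than a typical gene. With benign samples 3, 4 and 6 left out, the samples with muscle RNA, the median was 0.18, against 0.00095 over all genes in that fit. In it 3 mitosis genes were higher (Hmmr, Cenpf and Mki67) and 1 was lower (Pttg1). With benign sample 1 left out as well, which leaves benign samples 2 and 5, the median was -0.13, with 2 higher and 3 lower. The median over all genes in that fit was 0.0048. This was the only alternative in which the sign of the members' median reversed, and it was chosen after seeing the data. With any 1 sample left out the median stayed above 0, at 0.21 to 0.80. The shares of all genes called in the fits with several benign samples left out are not given here.

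Tumors differed little from each other in this program. Across the 42 genes the highest tumor was from 1.24 times (Kif4) to 2.66 times (Cdca8) the lowest, and the mean log2 CPM of the 42 genes ran from 4.67 in tumor 5 to 4.98 in tumor 1. Tumor 1 was the highest tumor for 14 genes, tumor 6 for 13 and tumor 2 for 10, while tumor 5 was the lowest for 20. Tumor 5 stood low in Melk (7.80 CPM), Cdca8 (10.1 CPM), Kif2c (11 CPM) and Cdc20 (19.6 CPM) but was the highest tumor in Cdk1, at 54.6 CPM. Its 31 DNA replication genes, which act in S phase, had the highest mean log2 CPM of the tumors, at 5.06 against 4.51 to 4.77 in the others. Erbb2 varied from 1989 CPM in tumor 4 to 16634 CPM in tumor 3, while Mki67 in the same samples was 191 and 168 CPM, the lowest values of the 6 tumors.

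**Figure D5:**
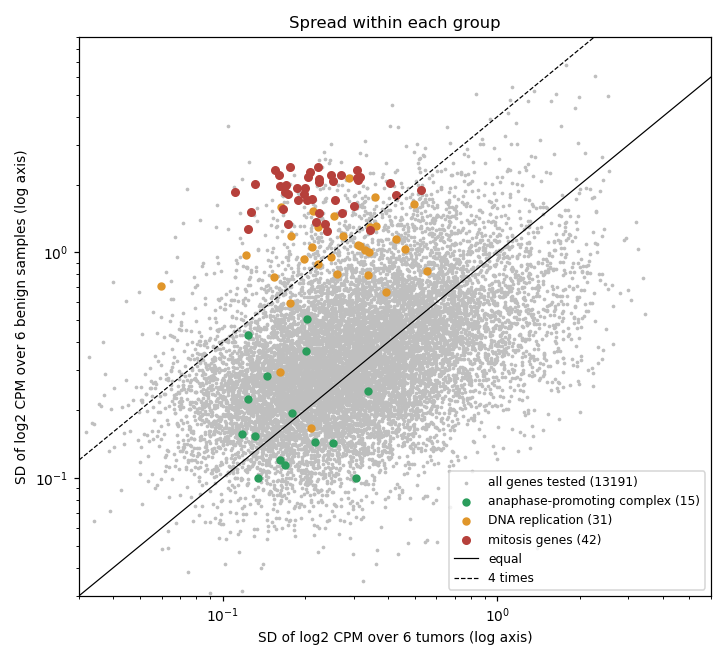
SD of log2 CPM over the 6 benign samples (y axis, log scale) against that over the 6 tumors (x axis, log scale) for the 13191 genes tested (grey), with mitosis genes in red, DNA replication genes in orange and 15 genes of the anaphase-promoting complex in green. The red points form a cloud near 2 on the y axis, mostly above the dashed line of a 4 times larger SD in benign tissue, while the green points lie among the grey.

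Compared per kilobase of exon, which sets genes of different length side by side, Mki67 (23.1 ± 5.02 CPM per kilobase, SD, n = 6) and Ccnb2 (22.6 ± 3.37) had the highest levels in tumors, followed by Cdc20 (18.7 ± 4.43) and Ccna2 (15.8 ± 2.28). Mki67 and Ccnb2 differed by less than their SDs, as did Cdc20 and Ccna2. The lowest were Ndc80 (1.77 ± 0.27), Mybl2 (2.16 ± 0.34) and Cdc25c (2.38 ± 0.52). The lengths are unions of exons in the GENCODE M21 annotation, not those of the transcripts in use. Exons of Top2a and Foxm1 overlap other annotated genes on the same strand, and Ccnb1 and Ccnb2 have annotated pseudogene copies, so the split of their reads is less certain.

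Other genes of the same process showed how far the pattern reached. Of 77 further mitosis genes, 76 were tested, of which 10 rose and 4 fell, against 28.2% and 34.8% of genes tested. The median log2 fold change was 0.26. An SD at least 4 times larger in benign tissue was found for 51 of 77, against 4.77% of genes tested. Spag5, a spindle and kinetochore protein, had the largest difference, at 1.42 to 35.2 CPM in benign tissue (median 11.8) and 38.6 to 192 CPM in tumors (median 67.5), with 2.47 (SE 0.68, adjusted p = 0.00717 in edgeR). Hjurp, the chaperone that loads CENP-A, followed with 1.29 (SE 0.32, adjusted p = 0.00370 in edgeR), at 13.1 to 49.7 CPM and 55.2 to 109.6 CPM. For these 2 genes every tumor lay above every benign sample. The lowest were Pkmyt1, an inhibitory kinase of CDK1, with -0.85 (SE 0.27, adjusted p = 0.0156 in edgeR), and Zwint, a kinetochore protein, with -0.76 (SE 0.14, adjusted p = 0.000592 in edgeR), at 81.9 to 117 CPM in benign tissue and 41.1 to 74.7 CPM in tumors. Zwint fell without the wide benign spread, with an SD of log2 CPM of 0.18 in benign tissue.

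Chromosome condensation genes lay between the mitosis genes and constant genes. Of the 8 condensin subunits, 2 rose and 0 fell, against 28.2% and 34.8% of genes tested. Ncapg2 rose by 0.88 (SE 0.32, adjusted p = 0.0293 in edgeR), Ncapg was next by size at 0.48 without a call, and the smallest were Smc4 at -0.04 and Ncapd3 at 0.20. The second call was Ncaph2, which rose by 0.41 (SE 0.13, adjusted p = 0.0187 in edgeR) and was named after its value was seen. The median SD of log2 CPM was 0.95 in benign tissue and 0.26 in tumors.

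The anaphase-promoting complex itself, listed as its core subunits and the coactivator Fzr1, did not share the wide benign spread. Of these 15 genes 4 rose and 3 fell, against 28.2% and 34.8% of genes tested. The median SD of log2 CPM was 0.16 in benign tissue and 0.17 in tumors, with 0 of 15 at a ratio of 4. The largest were Anapc15 at 0.50 (SE 0.17, adjusted p = 0.0236 in edgeR) and Anapc2 at 0.38 (SE 0.09, adjusted p = 0.00326 in edgeR), and the smallest Anapc5 at -0.63 (SE 0.18, adjusted p = 0.0103 in edgeR) and Anapc16 at -0.49 (SE 0.12, adjusted p = 0.00378 in edgeR). Anapc2 was thus called at a difference of 0.38, while Cdc25c was not at 0.92.

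The MuvB, DREAM and E2F subunits that control the program from above had a median SD of log2 CPM of 0.33 in benign tissue and 0.19 in tumors, with 1 of 11 at a ratio of 4. Of 11, 2 rose and 2 fell, against 28.2% and 34.8% of genes tested. Tfdp2, a partner of E2F factors, rose by 0.63 (SE 0.13, adjusted p = 0.000978 in edgeR), and Rbl1, the pocket protein p107, was next at 0.40 without a call. Rbl1 was the gene past that ratio, with an SD of 0.67 in benign tissue and 0.050 in tumors, and it was lowest in benign samples 4 and 6, at 11.8 and 12.4 CPM. Lin52, a MuvB subunit, fell by 1.18 (SE 0.20, adjusted p = 0.000256 in edgeR), from 12.6 to 24.3 CPM in benign tissue to 5.92 to 9.90 CPM in tumors, and E2f4, the DNA-binding subunit of DREAM, fell by 0.67 (SE 0.13, adjusted p = 0.000742 in edgeR).

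The 31 DNA replication genes shared the benign spread in part, with a median SD of log2 CPM of 1.04 in benign tissue and 0.26 in tumors and 13 of 31 at a ratio of 4. Of these, 2 rose (Pole2 and Pola1) and 0 fell, against 28.2% and 34.8% of genes tested, with a median log2 fold change of 0.09. Pole2 at 0.84 (SE 0.41, adjusted p = 0.09998 in edgeR) and Pole at 0.76 (SE 0.38), subunits of DNA polymerase epsilon, were the largest, and Gins1 at -0.80 (SE 0.44) and Gins3 at -0.51 (SE 0.40), of the replicative helicase, the smallest. Summed, the replication genes lay at 2028 and 1453 CPM in benign samples 3 and 5 and at 432 and 348 CPM in benign samples 4 and 6, the same pairs that were highest and lowest for mitosis.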

How the data were processed

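RNA from 6 tumors and 6 benign mammary samples, taken from different mice, was sequenced by the authors from poly A selected, directional paired-end libraries. The authors trimmed reads with Trim Galore, quantified transcripts with Salmon against mm10 (from the submitters' processing notes, without versions) and deposited the estimated counts of each gene, all of them integers. The table held 16411 genes, and 0 columns lacked a sample. Because Salmon apportions reads among transcripts, near-identical copies can share counts.

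Counts were used as deposited. Genes were filtered with edgeR 4.0.16 (minimum count 10, minimum total 15, by group), scaled by TMM and tested tumor against benign by quasi-likelihood in R 4.3.3, with Benjamini-Hochberg adjustment over 13191 genes and a threshold of 0.1. SEs were derived from the F statistic, and log2 CPM used 2 added counts. Exact two-sided permutation tests of mean CPM covered 924 regroupings, also in R. Scripts were tested on simulated data. Totals of 5240853 to 8588567 counts put 3 counts at 0.416 CPM. The p-values measure only the spread between these samples. Groups came from the labels.

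Alternatives were DESeq2 1.42.0, other scalings and filters, a stricter threshold, a replicate block and omitted samples. Promoters came from RefSeq (GRCm38.p6) and were searched on both strands, with exact binomial intervals (SciPy 1.17.1). The members and gene lists were chosen with earlier results of these data known. All 42 members are described, with values by sample for the genes the results turn on. Of each other list, the 2 largest and 2 smallest log2 fold changes are named. A marker list for 1 further cell type is not reported here.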

Additional observations from a re-analysis of the deposited data

Results flagged for a closer look

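Among 84 sets of 6 samples (42 genes in tumors and in benign tissue), 8 held a sample far from the other 5 by Dixon's criterion, all in tumors. Chance flags about 1 set in 20. Tumor 5 stood low in 5 genes. Melk was 7.80 CPM there, with the nearest tumor at 14.8 CPM. Cdca8 was 10.1 CPM, with the nearest at 21.8 CPM. Kif2c was 11 CPM, with the nearest at 17.4 CPM. Kif23 and Cdc20 were each 19.6 CPM, with the nearest at 24.2 and 34.2 CPM. The same tumor had the highest mean level of DNA replication genes.

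The other 3 lay above the rest of their group. Bub1b was 44.6 CPM in tumor 2, with the nearest tumor at 33.0 CPM, and Top2a was 149 CPM there, with the nearest at 114 CPM. Cenpa was 46.7 CPM in tumor 1, with the nearest at 32.9 CPM.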

How the results depend on the processing

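The number of mitosis genes higher in tumors was 2 in edgeR at an adjusted p under 0.1. It was 1 with upper-quartile scaling, 0 at an adjusted p under 0.05 and 0 to 5 with 1 sample left out. It was 0 without benign sample 2, 4 without benign sample 3 and 5 without benign sample 5. It was also 0 with at least 10 counts in every sample, where 22 members were tested. That filter removed Hmmr and Cenpf, whose lowest counts were 6 and 5, so it could not test those calls. The shares of all genes called in these other fits are not given here. The number lower was 0, with 0 to 0 on leaving out 1 sample, 1 without benign samples 3, 4 and 6 and 3 without benign samples 1, 3, 4 and 6, an alternative chosen after seeing the data. Their median log2 fold change ranged from 0.21 to 0.80 with 1 sample left out and was -0.13 without benign samples 1, 3, 4 and 6. Of the other mitosis genes, 10 were higher and 4 lower. The higher ones were 5 with at least 10 counts in every sample, a filter that removed some of the called genes, such as Spag5. They were 4 at an adjusted p under 0.05, 6 without benign samples 1, 3, 4 and 6 and 5 to 14 with 1 sample left out. The lower ones were 2 with total counts, 11 without those 4 samples and 2 to 7 with 1 left out. An SD in benign tissue at least 4 times that in tumors was found for 38 to 41 members with 1 sample left out and for 22 without benign samples 3, 4 and 6.

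Apart from the fit without benign samples 1, 3, 4 and 6, whose single members are not listed, signs reversed only for members that were not called. With upper-quartile scaling Ube2c was at -0.014. Without benign samples 3, 4 and 6, Bub1b was at -0.14, Aurkb at -0.13, Birc5 at -0.028, Cdca8 at -0.16, Ndc80 at -0.14, Nuf2 at -0.0012, Nusap1 at -0.21, Kif23 at -0.10, Cdc20 at -0.17 and Ube2c at -0.28. With 1 sample left out, Aurkb ranged from -0.20 to 0.44, Bub1b from -0.032 to 0.69, Cdc20 from -0.13 to 0.52, Cdca8 from -0.17 to 0.43, Incenp from -0.46 to 0.015, Kif23 from -0.050 to 0.53, Melk from -0.36 to 0.41, Ndc80 from -0.059 to 0.58, Nusap1 from -0.098 to 0.46, Pttg1 from -0.57 to 0.049 and Ube2c from -0.22 to 0.50. Over all single members, 803 of 862 values kept direction and side of the threshold. These values leave out the fit without benign samples 1, 3, 4 and 6, in which the median of the members was -0.13. The cause of these shifts was not tested.

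Tumors and benign samples share only their numbers, since they came from different mice. Correlations of same-numbered samples ran from -0.12 to 0.10, and 0 of 6 correlated best with its own number. With the replicate block 4 members were higher, the median was 1.05, Melk was at 0.57 and Incenp at 0.091.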

Other observations

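A pair of genes outside the mitosis lists, chosen after their values were seen, also varied widely within benign tissue. Csn2, which encodes the milk protein beta-casein, ranged from 67.1 to 4432 CPM in benign tissue and from 0.156 to 53.8 CPM in tumors. Calca, which encodes calcitonin and CGRP, ranged from 3.37 to 306 CPM in benign tissue and from 0 to 0.878 CPM in tumors. Each ran from benign sample 3 down through 5, 2, 1 and 4 to 6. That was the order of the summed mitosis genes except that benign samples 3 and 5 changed places.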
